A study of Homo sapiens with 18 samples.

Results

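The peaks described here are regions deposited as m6A peaks of LoVo cells in which the unenriched RNA was counted often enough for a stable ratio. They are the deposited peaks with a raw count of at least 20 in each of the 6 input libraries, 12346 of 39708, and they lie in exons of 4897 genes. LoVo is an established human colorectal adenocarcinoma line. The control cells carried METTL3 WT. The other cells carried METTL3 K513R, a lysine-to-arginine substitution in this m6A methyltransferase, and the labels name no further allele, treatment or time. Each genotype had 3 input and 3 immunoprecipitated (IP) libraries of MeRIP-seq, made from fragmented poly(A) RNA with an anti-m6A antibody, and 3 separate RNA-seq libraries from rRNA-depleted RNA. The labels do not say how the K513R cells were made, from how many clones, or whether libraries came from separate cultures. The p-values below therefore measure the spread between these libraries, which may be technical.

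N6-methyladenosine (m6A) is written co-transcriptionally on mRNA by a complex whose catalytic core is METTL3 with its partner METTL14, held together with WTAP, VIRMA, ZC3H13 and RBM15 proteins. Most m6A lies in the last exon, often near the stop codon, and in long internal exons, while short internal exons close to splice junctions carry little. YTH-domain proteins read the mark, and in the cytoplasm their binding shortens the life of many transcripts. Antibodies to m6A also bind m6Am, a related mark on an adenosine next to the 5′ cap, which a separate enzyme, PCIF1, writes.

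The measure throughout is log2 IP over input, from CPM (counts scaled to library size) in tested peaks plus 0.5, scaled by TMM factors within the IP and within the input libraries. A value of 0 marks a peak with equal scaled values in IP and input, and the median over all tested peaks was 0.21 to 0.26 in each replicate. Over the well-covered peaks it was -0.12, -0.10 and -0.10 in WT and 0.07, -0.01 and -0.09 in K513R. Many of the peaks described here thus lay below 0, and a rise there is not a gain at a peak enriched on this scale. With this scaling a change shared by all peaks cannot be seen. The change is the genotype by IP interaction, K513R minus WT, from edgeR's quasi-likelihood test across 27252 peaks. "Rose" and "fell" are used where its Benjamini-Hochberg adjusted p was under 0.05.

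Many of the peaks with the largest rises lay over the first bases of a transcript. The sequences below are the RefSeq transcript starts (GRCh38.p14) under the 6 such peaks of up to 300 bases with the largest rises, followed by the 1 with the largest fall, since these are the places the first result turns on. Each shows 10 bases before the start and the first 20 transcribed bases, 5′ to 3′ on the gene's strand, with the first transcribed base in capitals.
TXNDC5, start at chr6:7910788: gagcgcgcccAgccccgccgcgatgcccgc
IGFBP6, start at chr12:53097667: ggcgggcagcAgctgcgctgcgactgctct
TMSB4X, start at chrX:12975110: cccgcccgacAactcggtggtggccactgc
NOC2L, start at chr1:959256: tggggtgcacGcttcgggttggtgtcatgg
BRD9, start at chr5:892801: gcctcgccccGtttccggcgcggcccagcg
LRPAP1, start at chr4:3532422: agcgccagtcGcagaggaagatggcgccgc
PCBP1, start at chr2:70087477: cgccccgcccAgaccgccgaggctgccgcc

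Of the 12346 well-covered peaks, 2677 rose in K513R (21.7%) and 1893 fell (15.3%), and 7776 did not pass the test. Over all tested peaks 13.0% were called higher and 9.61% lower, or 22.6% in either direction. The median change was 0.03, and 5% to 95% of the peaks lay between -1.09 and 1.12 on the log2 scale. A rise of at least 1 was called in 1013 peaks and a fall of at least 1 in 823. The 3 K513R values lay wholly above or below the 3 WT values in 7531 peaks (61.0%), beside 43.8% of all tested peaks. Scaling by library size alone moved the median to -0.20 and turned the split to 1421 higher and 2812 lower, so the balance of rises and falls follows the scaling. In the authors' deposited table the same peaks had a median difference of -0.20, with 2204 higher and 3531 lower at an FDR under 0.05. Without 1 WT replicate the counts were 971 to 1130 higher and 712 to 799 lower, and without K513R replicate 2 they were 1462 and 1023.

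Where a peak lay in its gene separated the rises from the falls. Among 1216 peaks in first exons, 507 rose and 55 fell (median change 0.63). Among 3997 peaks in last exons the balance was the other way, with 219 rises and 962 falls (median -0.36). Peaks in internal exons gave 1906 rises and 796 falls of 6775 (median 0.28), and peaks of single-exon genes 45 and 80 of 358 (median -0.18). Exons here are those of all annotated transcripts of a gene merged, so an exon that ends 1 isoform can count as internal in another. Of the peaks that rose, 18.9% lay in a first exon and 8.18% in a last exon, and of those that fell, 2.91% and 50.8%.

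Internal exons split by their length. In those of up to 200 bases, 933 of 1636 peaks rose and 14 fell (median 0.74). In those of over 1000 bases, 298 of 2614 rose and 410 fell (median -0.17). The median change went from 0.75 for internal exons of up to 140 bases and 0.74 for the next class, of up to 200 bases, through 0.60 for those of up to 400 bases, to -0.02, -0.18 and -0.15 in the 3 longer classes. Along the merged exons, cut into 10 equal bins from 5′ to 3′, bin 1 had a median change of 0.64, bin 3 had 0.01, bin 6 had -0.12 and bin 9 had -0.31. Peaks over short internal exons often ran across introns, with a median span of 3724.5 bases, and the labels do not say whether intronic bases were counted. Taking only the 2653 internal-exon peaks that lay wholly in exons turned the balance of the place, with 288 rises and 476 falls (median -0.20). The order by exon length was still there: of the 85 such peaks in exons of up to 200 bases, 40 rose and 0 fell. These are few of the 1636, with a median length of 62 bases and median log2 IP over input of -0.83, -0.85 and -0.79 in WT. The 650 wholly exonic peaks in internal exons of 401 to 1000 bases had 72 rises and 159 falls (median -0.34). Wholly exonic peaks of first exons gave 224 rises and 39 falls of 647 (median 0.53) and those of last exons 148 and 694 of 2940 (median -0.37).

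**Figure D1:**
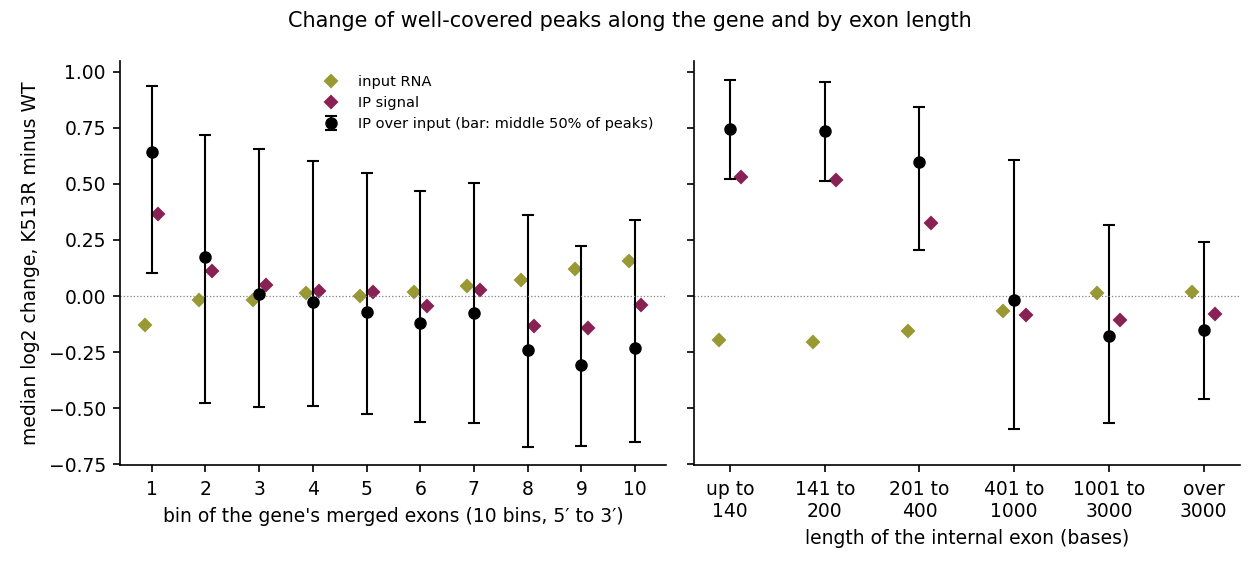
Median log2 change (K513R minus WT) of well-covered peaks by bin of the gene's merged exons (left, 10 bins) and by length of the internal exon in bases (right); black circles are IP over input with bars spanning the middle 50% of peaks, diamonds are the input RNA and the IP signal alone. The change of IP over input is highest in bin 1 (0.64) and in internal exons of up to 140 bases (0.75) and is below 0 towards the 3′ end.

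Library by library, the places lay apart in WT cells and closer together in K513R cells. In WT libraries the median log2 IP over input of short internal exons was -0.71, -0.72 and -0.68, and that of last exons 0.28, 0.30 and 0.29. In K513R libraries the short internal exons had medians of 0.15, 0.00 and -0.24, and the last exons 0.03, -0.09 and -0.10. The distance between the 2 places was thus -0.99 ± 0.03 in WT and 0.02 ± 0.15 in K513R (SD, n = 3 each), and the groups did not overlap. First exons minus last exons went from -0.62 ± 0.02 in WT to 0.23 ± 0.10 in K513R. Long internal exons minus last exons went from -0.13 ± 0.01 to 0.08 ± 0.04. An exact permutation test of 3 against 3 libraries cannot give less than p = 0.1, two-sided, which was its value for each of these 3 distances. K513R replicate 1 lay closest to a flat profile: the SD over peaks of its log2 IP over input was 0.66, beside 0.78 and 0.85 in the other K513R replicates and 0.81 to 0.83 in WT.

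**Figure D2:**
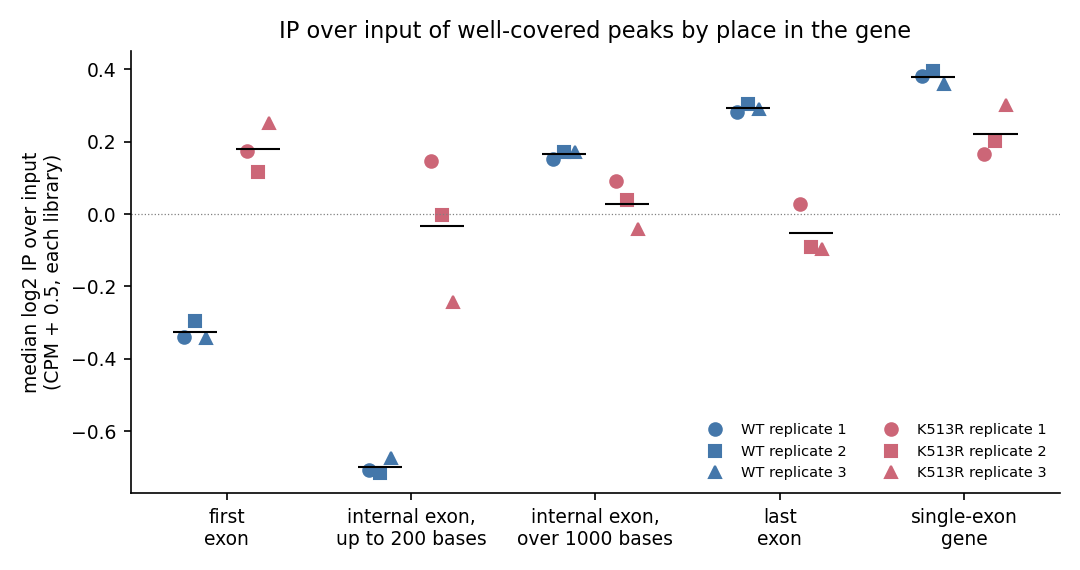
Median log2 IP over input of well-covered peaks in each library (symbols, 3 per genotype) by place in the gene, with a black line at the mean of the 3 libraries. In first exons and in internal exons of up to 200 bases all K513R medians lie above all WT medians, and in last exons all lie below.

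Both sides of the ratio moved with position. At peaks in last exons the median change of the input RNA was 0.17 and that of the IP signal -0.18. At short internal exons the input medians changed by -0.20 and the IP signal by 0.53. Over all well-covered peaks the input alone rose in 1381 and fell in 1323 (background 7.45% and 6.42%, 13.9% in either direction), and the IP signal rose in 3601 and fell in 2848 (background 22.6% and 19.4%, 42.0% in either direction). Among the 2677 peaks whose IP over input rose, the input fell in 585 and rose in 109, and among the 1893 that fell, it rose in 481 and fell in 51. The ratio shares the input libraries with this count, and the part of the input in the result was not tested.

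Each peak came from 1 of 2 deposited lists, named for WT and for K513R, and the list it came from is not independent of its change. The 7022 well-covered peaks of the WT list gave 974 rises and 1397 falls (median -0.20), and the 5324 of the K513R list 1703 and 496 (median 0.39). In refits of each list alone this balance turned, with 1363 rises and 696 falls in the WT list and 617 and 936 in the K513R list. The direction of a list thus depends on which peaks are fitted together. First exons and short internal exons lay above last exons within each list. In the WT list, first exons had a median change of 0.42, internal exons of up to 200 bases 0.68 and last exons -0.45. The K513R list gave 0.74, 0.80 and -0.18 for the same places. Internal exons of over 1000 bases differed in direction between the lists, with 110 rises and 297 falls in the WT list (median -0.27) and 188 and 113 in the K513R list (median 0.02). Many peaks of the lists overlap, and the 12346 fall into 7617 groups of overlapping peaks. With 1 peak per group the counts were 1951 rises and 1114 falls of 7616.

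The change also went with how enriched a peak was in WT. To keep the measure of enrichment out of the test, peaks were ranked by WT replicate 1 and the change was taken from a fit without that replicate. Of 10 ranked bins, the least enriched had a median change of 0.74 with 273 rises and 6 falls, and bin 9 had -0.49 with 19 rises and 136 falls. In the most enriched bin the median was -0.40. Within each of 4 ranked bins the places still differed, though enrichment was not matched between places inside a bin. In the least enriched of the 4 the median change was 0.74 in first exons, 0.68 in internal exons and 0.35 in last exons. The direction within a place turned with WT enrichment. In bin 2 the medians were 0.71, 0.45 and -0.16 for the same places, and in bin 3 they were 0.35, -0.22 and -0.47. In the most enriched of the 4 bins all 3 were below 0, at -0.34, -0.42 and -0.51, and lay closest together.

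The 6 genes with the strongest WT enrichment had values well above 0 in K513R as well. In the last exon of NR2F2 (chr15:96337504-96337895 in GRCh38, as are all positions here), a nuclear receptor of the COUP-TF family, log2 IP over input was 2.85, 3.00 and 3.19 in WT and 2.15, 2.68 and 2.66 in K513R. The change was -0.48 ± 0.25 (SE, adjusted p = 0.169), and it passed the test when each input was paired with its IP (-0.53, adjusted p = 0.0152). In the last exon of ENTPD1, which encodes the ATP-hydrolysing surface enzyme CD39, values were 2.77, 2.54 and 2.53 in WT and 2.24, 2.55 and 3.14 in K513R. These groups overlapped, as did those of SLC39A14 (a metal ion transporter), N4BP3, FANCM (a DNA translocase of the Fanconi pathway) and ZNF316, whose changes lay between -0.11 and 0.18 with adjusted p of at least 0.8.

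Peaks of the same gene often changed by different amounts. Of 1713 genes with at least 2 well-covered peaks that do not overlap, 704 had peaks both in the last exon and upstream of it. In 548 of them (77.8%) the signed change was lower (more negative or less positive) in the last exon than in the upstream exons, with a median difference of -0.56. Against the first exon alone it was 163 of 193 genes (84.5%), with a median difference of -0.85. A rise and a fall both passed the test in 173 genes, and 292 genes had 2 or more calls all in 1 direction. Exons were merged over isoforms, so peaks of a gene can lie on different transcripts. The part of transcript level and of processing in this comparison was not tested.

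The largest opposed pair was in MRPL41, a protein of the mitochondrial ribosome. Its first-exon peak (chr9:137551878-137552119) had log2 IP over input of -0.92, -1.14 and -1.11 in WT and 0.20, 0.78 and 0.50 in K513R, a rise of 1.62 ± 0.30. Its last-exon peak (chr9:137552322-137552555) had 0.10, -0.65 and 0.27 in WT and -1.29, -1.69 and -2.28 in K513R, a change of -1.77 ± 0.42 (adjusted p = 0.00649, and 0.056 without WT replicate 3). At each place the 2 genotypes were apart, in opposite order. The same opposition was seen in RALGDS, an exchange factor for Ral GTPases, with 1.55 ± 0.40 at the first exon and -1.70 ± 0.34 at the last. The first of these was lost without WT replicate 1 (1.25, adjusted p = 0.089) or WT replicate 3 (1.52, adjusted p = 0.055). In DYNLL1, a light chain of dynein, an internal exon gained 1.44 ± 0.18 and the last exon changed by -1.39 ± 0.27. UFL1, the ligase that attaches UFM1 to proteins, gave 1.13 ± 0.26 at an internal exon of 180 bases and -1.78 ± 0.33 at the last exon.

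Peaks at transcript starts mostly rose. Well-covered peaks reached the first 50 bases of a RefSeq transcript start 1365 times in 850 genes, and of these 716 rose and 37 fell (median change 0.75). TXNDC5 encodes a thioredoxin-like disulfide isomerase of the endoplasmic reticulum. Its first-exon peak (chr6:7910667-7910788) had log2 IP over input of -0.35, 0.07 and 0.10 in WT and 1.56, 2.35 and 2.16 in K513R. The rise was 2.09 ± 0.29 (adjusted p = 0.000295), made of a change of -0.92 in input and 1.18 in IP. In RNA-seq TXNDC5 was 2.56 higher on the log2 scale, the opposite direction to the input at this first exon.

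TMSB4X, an abundant actin-sequestering peptide, had start-peak values of 0.33, 0.61 and 0.75 in WT and 1.69, 2.89 and 2.65 in K513R (1.83 ± 0.26). At IGFBP6, a secreted binding protein of insulin-like growth factors, WT values of -0.10, -0.75 and 0.09 stood against 1.03, 1.76 and 1.88 (1.93 ± 0.38). NOC2L and BRD9 started far below 0 in WT. NOC2L, a nucleolar protein that also inhibits histone acetylation, went from -1.59, -1.57 and -1.70 to -0.51, 0.11 and 0.66 (1.80 ± 0.30). BRD9, a subunit of a SWI/SNF chromatin remodeller, went from -1.77, -1.80 and -2.05 to -0.67, -0.45 and 0.48 (1.74 ± 0.33). The K513R replicates differed among themselves by more than 1 at both of these peaks, and none of them reached the WT range. LRPAP1, a chaperone of LDL-receptor family proteins, rose by 1.69 ± 0.33.

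PCBP1, a single-exon gene for an RNA-binding protein of poly(C) tracts, went the other way at its start: 0.67, 0.47 and 0.51 in WT and -0.54, -0.81 and -0.35 in K513R (-1.11 ± 0.22, adjusted p = 0.0022). Among the 7 RefSeq starts printed above, TXNDC5, IGFBP6, TMSB4X and PCBP1 begin with an adenosine and NOC2L, BRD9 and LRPAP1 with a guanosine. The peaks of IGFBP6, NOC2L and LRPAP1 reach upstream of the printed start, and the start used in these cells was not measured. An adenosine opened the transcript of 51.7% of the start peaks that rose and 52.8% of those that did not pass, and of 43.2% of the 37 that fell, beside 46.1% of the RefSeq starts of genes with a well-covered peak and 44.4% of all starts. The letters GGAC, the core of the usual m6A motif, searched on the transcribed strand in the first 50 bases, were in 21.9% of starts under a rise, 20.8% of those under a peak that did not pass, 16.2% of those under a fall, 19.7% of the starts of genes with a well-covered peak and 18.9% of all starts.

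Of the 10 largest falls, 5 lay in last exons. The genes were CNOT9, PIK3CB, MYPOP, NOL6 and MEX3D. CNOT9, a subunit of the CCR4-NOT deadenylase that shortens poly(A) tails, had at chr2:218594245-218594783 0.81, 1.15 and 0.87 in WT and -0.50, -1.35 and -1.22 in K513R, a fall of 2.07 ± 0.32 on the log2 scale (adjusted p = 0.000526). PIK3CB, a catalytic subunit of PI 3-kinase, had -0.28, -0.03 and -0.23 in WT and -1.80, -2.68 and -1.69 in K513R. NOL6, a factor of ribosomal RNA processing, had 1.50, 1.11 and 1.25 in WT and -0.65, -0.28 and -0.84 in K513R. All 3 genes had K513R values far under the lowest WT value.

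SARAF, which slows store-operated calcium entry, fell by 2.17 ± 0.19 at a peak that spans an internal exon (adjusted p = 1.77e-06), and its IP signal fell by 1.72 while its RNA-seq level was 1.48 higher. ACTR1A, a dynactin subunit, had 0.96, 1.04 and 0.59 in WT and -1.12, -0.86 and -1.30 in K513R at an internal exon of 1737 bases (chr10:102480572-102480961). Its input changed by -0.08, so the fall of 2.02 ± 0.27 lay on the IP side. RUNX1, a transcription factor, fell by 1.94 ± 0.41 and DHX33, an RNA helicase, by 1.92 ± 0.29. The largest of these falls, -2.51 ± 0.46 at NUDT19, was on a peak that spans 16691 bases, of which exons cover 1.08%.

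**Figure D3:**
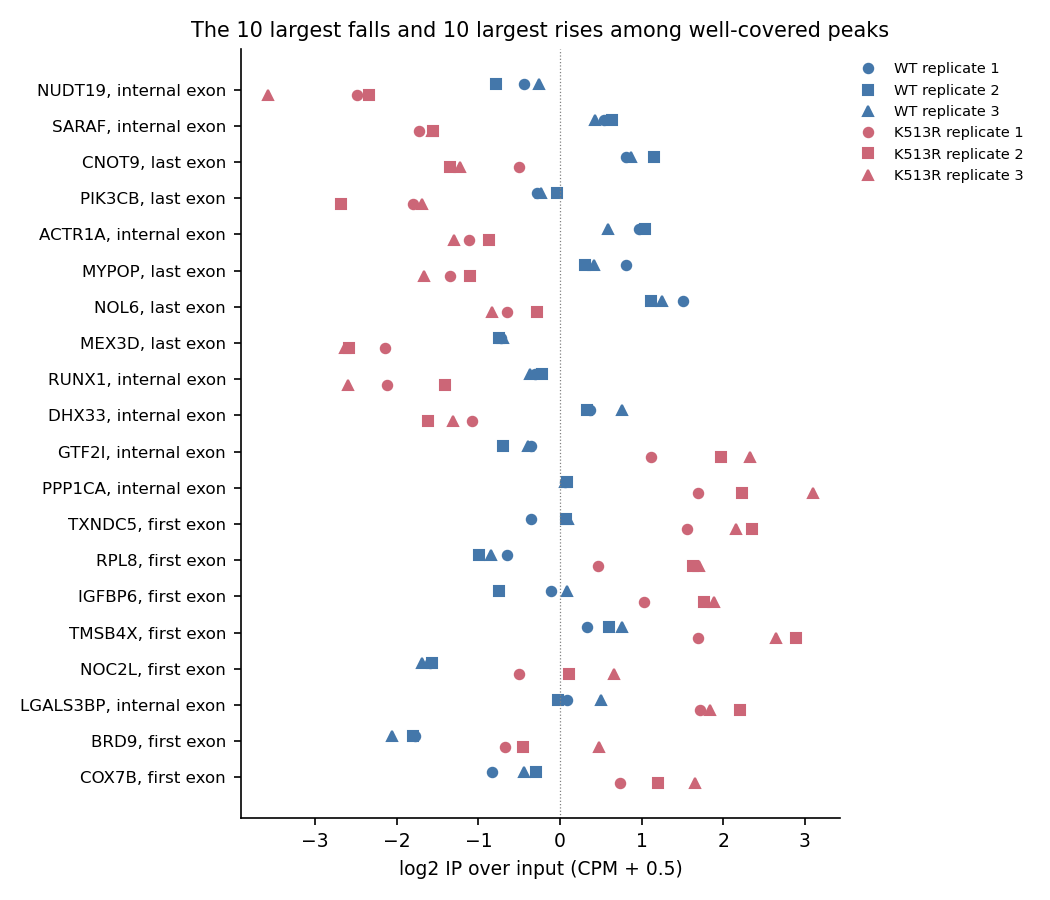
Log2 IP over input in each library (symbols) for the 10 largest falls and the 10 largest rises among well-covered peaks, 1 peak per gene, with the place of the peak beside the gene. For every peak the 3 K513R values lie on 1 side of the 3 WT values, which was a condition of the choice.

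Further rises of this size were at PPP1CA, a catalytic subunit of protein phosphatase 1 (0.06, 0.08 and 0.06 in WT, 1.70, 2.23 and 3.10 in K513R, 2.35 ± 0.32), and COX7B of the respiratory chain (1.72 ± 0.26). RPL8, a ribosomal protein, rose by 2.05 ± 0.28 at its first exon and LGALS3BP, a secreted galectin-binding glycoprotein, by 1.79 ± 0.36. GTF2I gave the largest of these rises, 2.38 ± 0.33. Because GTF2I has near-identical copies in the genome, the source of its reads is uncertain.

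Of the 5 named falls with the most input, all but that of YLPM1 lay in last exons. The last-exon peak of ACTB (beta-actin, chr7:5527453-5527902) had 6517 to 16130 input counts per library. Its log2 IP over input was -0.62, -0.80 and -0.69 in WT and -1.58, -1.87 and -1.74 in K513R, a fall of 1.01 ± 0.21 (adjusted p = 0.00286) with an input change of 0.01. HNRNPF, a splicing regulator, had -0.17, -0.16 and -0.16 in its last exon in WT and -1.12, -1.28 and -1.30 in K513R (-1.07 ± 0.16). NSUN2, a 5-methylcytosine methyltransferase of RNA, fell by 1.08 ± 0.18 in its last exon, where another of its peaks had a change of 0.12 (adjusted p = 0.853). Of the other falls with most input, YLPM1 and RPL36AL lost the call in 4 and 5 of the leave-outs (highest adjusted p 0.089 and 0.086).

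HSP90AA1, a chaperone, rose by 1.06 ± 0.23 at an internal exon of 600 bases, and PTMA (prothymosin alpha) by 0.82 ± 0.19, lost without WT replicate 3 (0.71, adjusted p = 0.072) or K513R replicate 2 (0.76, adjusted p = 0.057). A rise of 1.11 ± 0.24 at the first exon of WDR74 shares its exon with another annotated gene, and it was lost with library-size scaling (0.90, adjusted p = 0.070). NCL and NPM1, nucleolar proteins, lost their rises in 12 and 14 of the leave-outs (highest adjusted p 0.158 and 0.177). The order of places did not hold in every abundant transcript: in HSP90AA1 the last exon had a change of 0.71 and the upstream exons a mean of 0.56.

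Transcripts of the writer complex carried peaks of their own. METTL3 had 3 well-covered peaks, and none of them passed the test. The one at chr14:21503261-21503501, in an internal exon, had log2 IP over input of -0.91, -0.63 and -0.85 in WT and -1.55, -1.63 and -1.10 in K513R (-0.67 ± 0.25, adjusted p = 0.0559). The groups did not overlap, and with each input paired with its IP the value was -0.67 (adjusted p = 0.0453). It also passed with DESeq2 (-0.67, adjusted p = 0.0468), with upper-quartile or library-size scaling (-0.71 and -0.88), in a refit on the well-covered peaks alone and without K513R replicate 3 or its IP library. It did not pass with limma-voom, with TMM factors over all 12 libraries, without the low-count filter or in any other leave-out. METTL3 RNA was 0.41 ± 0.10 higher in K513R in RNA-seq (adjusted p = 0.00116), which shows its level and not the K513R substitution.

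METTL14, the partner that positions the substrate RNA, had 1.13, 1.06 and 0.74 in its last exon (chr4:118710066-118710247) in WT and -0.48, -0.45 and -0.41 in K513R, a fall of 1.46 ± 0.24 (adjusted p = 0.000755). WTAP, the adaptor that brings the core to nuclear speckles, had 1.19, 1.55 and 1.48 in its last exon (chr6:159755154-159755722) in WT and 0.29, -0.78 and -0.72 in K513R (-1.85 ± 0.30, adjusted p = 0.000637). The WTAP input at this place was 1.24 higher in K513R. An internal exon of 198 bases in WTAP rose by 0.83 ± 0.27 (adjusted p = 0.0337), and that call was lost in 11 of the leave-outs (highest adjusted p 0.136) and with library-size scaling (0.60, adjusted p = 0.11). Over the whole list of writers, 7 peaks rose and 16 fell of 44 in 10 genes (15.9% and 36.4%, median change -0.39). Over all well-covered peaks the shares were 21.7% and 15.3%, to be set beside each list below. No list was tested as a set.

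Among readers and erasers, 8 peaks rose and 5 fell of 31 in 12 genes (25.8% and 16.1%, median -0.27). IGF2BP2, a reader that stabilises its targets, had -0.15, -0.29 and -0.01 at its first exon in WT and 0.58, 1.43 and 1.50 in K513R (1.32 ± 0.24, adjusted p = 0.00122). Its RNA-seq level changed by -3.57 on the log2 scale. FMR1, HNRNPA2B1 and HNRNPC had rises and no fall, and RBMX, YTHDF1 and YTHDF2, the last a reader that recruits deadenylases, falls and no rise. The named peaks of FMR1 and HNRNPA2B1 lost the call in 13 and 3 of the leave-outs (highest adjusted p 0.168 and 0.073), and FMR1 also with library-size scaling (0.58, adjusted p = 0.18).

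MAT2A ran against the position of its peak. It encodes the enzyme that makes the methyl donor S-adenosylmethionine, and hairpins in its 3′ part are methylated by METTL16, not by the METTL3 complex. Its last-exon peak (chr2:85544266-85545281) had log2 IP over input of 1.18, 1.46 and 1.10 in WT and 2.06, 2.29 and 2.98 in K513R, a rise of 1.25 ± 0.26 (adjusted p = 0.00267). The IP signal was 1.70 higher and the input 0.45. Of the 71 peaks in 25 well-studied m6A target RNAs, 8 rose and 13 fell (11.3% and 18.3%, median -0.28). YAP1, the Hippo pathway co-activator, was among the falls, with 0.07, -0.14 and 0.04 in its last exon in WT and -0.97, -1.15 and -1.52 in K513R (-1.22 ± 0.20), while its first exon rose by 0.79 ± 0.26.

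The series title names retroelements and immune evasion, so lists for their silencing and sensing were described. Retroelement silencing genes had 26 rises and 9 falls among 83 peaks of 23 genes (31.3% and 10.8%, median 0.34). HELLS, a remodeller needed for DNA methylation, had -0.76, -1.10 and -0.92 in WT and 0.55, 0.19 and 0.24 in K513R (1.32 ± 0.28). SMCHD1, a silencer of the inactive X chromosome, rose by 1.22 ± 0.27 at an internal exon. CBX3, a heterochromatin protein, rose by 1.40 ± 0.36, a call lost without WT replicate 1 (1.38, adjusted p = 0.054). SETDB1, ATF7IP, TASOR, SUV39H2 and ZNF638 had falls and no rise. RNA-seq levels of these 23 genes were lower in 20 and higher in 3. Among all genes with a well-covered peak 61.0% were lower and 24.9% higher, and among all tested genes 36.9% and 41.5%. SETD1A and E2F4, also named in the title, had no well-covered peak.

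Double-stranded RNA sensing gave 7 rises and 8 falls among 28 peaks of 8 genes. ADAR, which edits adenosine to inosine in double-stranded RNA, had 0.96, 0.57 and 0.71 in its last exon (chr1:154584663-154584993) in WT and -0.57, -1.09 and -0.48 in K513R (-1.48 ± 0.21, adjusted p = 0.00035). Another of its peaks, over an internal exon of 1045 bases, rose by 0.69 ± 0.22. IFIH1, the sensor MDA5, fell by 1.39 ± 0.30 at its first exon, against the median of first exons, and its input was 1.95 higher. A peak over an internal exon of 279 bases in IFIH1 rose by 0.82 ± 0.28. TRIM25, a ubiquitin ligase of the RIG-I pathway, rose by 1.42 ± 0.32.

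Interferon-stimulated genes gave 6 rises and 6 falls among 44 peaks of 17 genes (13.6% each, median -0.04), with a median input change of 1.65. IFIT3, an interferon-induced protein, was the extreme. Its peak (chr10:89339964-89340505) had 53 to 85 input counts in WT and 1759 to 2059 in K513R. IP over input was 0.56, 0.67 and 0.50 in WT and -0.73, -1.13 and -1.21 in K513R, a fall of 1.62 ± 0.22 (adjusted p = 0.000295), while the IP signal itself was 3.68 higher. PARP9, a partner of the ubiquitin ligase DTX3L, fell by 1.23 ± 0.23 with an input 2.93 higher. SP100, a nuclear body protein, rose by 1.17 ± 0.28 at an exon that another annotated gene shares, with an input 1.42 higher. RNA-seq differed from the input in size or direction at these genes: IFIT3 changed by 1.32 and SP100 by -1.29 on the log2 scale.

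Antigen presentation gave 7 rises (41.2%) and 0 falls among 17 peaks of 7 genes (median 0.53), and 9 of the 17 lay in a last exon. RNA-seq levels were higher for 6 of the 7 genes and lower for 0, beside 41.5% and 36.9% of all tested genes. Among genes with a well-covered peak the shares were 24.9% and 61.0%. The genes with a rise were CALR, CANX and PDIA3, chaperones of the endoplasmic reticulum with functions beyond peptide loading, and PSME2, a proteasome activator. The PSME2 rise of 1.16 ± 0.34 was lost in 6 of the leave-outs (highest adjusted p 0.075). PDIA3 (0.60 ± 0.21) and CANX (0.56 ± 0.17) were lost in 14 and 10 of them (highest adjusted p 0.169 and 0.154). Both also lost the call with library-size scaling, at 0.37 (adjusted p = 0.23) and 0.34 (adjusted p = 0.075). Among checkpoint ligands, PVR, the ligand of TIGIT, had 0.48, 0.79 and 0.62 in its last exon in WT and -0.31, -0.33 and 0.04 in K513R (-0.85 ± 0.18).

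Wnt genes had 5 rises and 16 falls among 56 peaks of 17 genes (8.93% and 28.6%, median -0.42). Of the 56, 18 lay in a last exon, a share near that of all well-covered peaks (3997 of 12346). CTNNB1 (beta-catenin), the transcriptional effector of the pathway, had 0.28, 0.28 and 0.11 at a long internal exon (chr3:41239632-41240022) in WT and -0.98, -0.95 and -1.33 in K513R (-1.32 ± 0.19, adjusted p = 0.000382). A peak at another CTNNB1 exon, of 419 bases, rose by 0.89 ± 0.24. PYGO2, a co-activator in the same complex, fell by 1.40 ± 0.21 in its last exon. LRP6, a Wnt co-receptor, fell by 1.70 ± 0.30 on a peak with 0.90% of its span in exons.

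In the cell cycle list 22 peaks rose and 13 fell of 95 in 24 genes (23.2% and 13.7%, median 0.17). These shares were near the 21.7% and 15.3% of all well-covered peaks. MCM3, a subunit of the replicative helicase, fell by 1.33 ± 0.18 and FOXM1, a transcription factor of mitotic genes, by 1.14 ± 0.26, both in the last exon, while CENPE, a centromere motor, rose by 1.17 ± 0.23 at an internal exon of 168 bases. RNA decay and translation genes, also near those shares, gave 17 rises and 13 falls of 85 (20.0% and 15.3%, median -0.08). CNOT1, the scaffold of CCR4-NOT, had -0.06, 0.07 and 0.12 at its first exon in WT and 1.33, 1.27 and 2.42 in K513R (1.58 ± 0.28). TOB2 and UPF1, which act in deadenylation and nonsense-mediated decay, fell in their last exons by 1.35 ± 0.18 and 1.22 ± 0.24. These 6 genes followed the order of places seen over all peaks.

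Chromatin regulators with long coding exons had 28 rises and 22 falls among 201 peaks of 41 genes (13.9% and 10.9%, median -0.05). SETD2, the H3K36 methyltransferase, fell by 1.63 ± 0.35 at an internal exon of 4367 bases, and KDM5A, an H3K4 demethylase, by 1.51 ± 0.31 at one of 356 bases. CHD1, a remodeller, fell by 1.63 ± 0.36 at an internal exon of 201 bases. The falls of KDM5A and CHD1 went against the median of their length class (0.60), and both genes also had rises, among them 0.79 ± 0.26 at an exon of 162 bases in KDM5A and 1.09 ± 0.22 at one of 404 bases in CHD1. E2F and H3K4 methyltransferase genes had 13 rises and 8 falls of 72 (18.1% and 11.1%, median -0.07). Among them were falls at KMT2D (-1.26 ± 0.30) and NCOA6 (-1.13 ± 0.25) and a rise at WDR82 (1.25 ± 0.28). The p53 list gave 3 rises and 3 falls of 27 (11.1% each, median -0.15) and the stress-response list 5 and 4 of 30 (16.7% and 13.3%, median -0.37). TIGAR, a fructose bisphosphatase, fell by 1.48 ± 0.35 in a last exon shared with another annotated gene, and HSP90B1, an endoplasmic chaperone, rose by 0.99 ± 0.23 at an internal exon of 117 bases.

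RNA-seq, from separate libraries, gave the level of the genes that carry these peaks. Of all tested genes 41.5% were called higher and 36.9% lower in K513R (78.3% in either direction). Of 4886 genes with a well-covered peak, 1216 were higher and 2981 lower (median change -0.64). Genes whose peaks only rose were lower in 907 of 1215 cases and higher in 166 (median -1.04). Genes whose peaks only fell were lower in 547 of 1054 and higher in 353 (median -0.33), and genes with no call were lower in 1391 of 2420 (median -0.53). RNA-seq and MeRIP input used different RNA selection, and their directions differed in part: of 749 genes with a peak whose input rose, RNA-seq was higher in 345 and lower in 285, and of 683 genes with a peak whose input fell, it was higher in 60 and lower in 566.

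The depth of the MeRIP libraries differed between genotypes. Well-covered peaks held 90.5% to 94.9% of the peak counts of each library, with 10163850 to 11381744 counts in WT IP, 5345155 to 8555597 in K513R IP, 4768005 to 5880243 in WT input and 2472753 to 4574388 in K513R input. Just under the count threshold, 1651 tested peaks with a lowest input count of 15 to 19 had 11.3% rises and 9.99% falls, and just above it, 1217 peaks with 20 to 24 had 14.5% and 11.5%. By chromosome, the 256 peaks on chromosome X had 81 rises and 18 falls (median 0.42), and 0 of 34 mitochondrial peaks was called. In RNA-seq 7 of 15 colorectal epithelial markers, CDH17 and KRT20 among them, were under 1 CPM in all 6 libraries, and the summed level of the 15 was 11000 to 16516 CPM in WT and 2222 to 2660 in K513R. The summed level of 17 markers of fibroblasts, endothelium and blood was 49.7 to 64.2 CPM in WT and 81.9 to 95.1 in K513R, with 0 of them at 0 in all libraries. The part of depth and of these markers in the results was not tested, and in bulk samples fewer cells of a type and less RNA per cell cannot be told apart.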

How the data were processed

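The study measured m6A by MeRIP-seq in 12 libraries and RNA by RNA-seq in 6 libraries of LoVo cells, 3 per group. Per the labels' protocols, 10% of the fragmented poly(A) RNA was kept as input, library molecules carried 8-base UMIs, and the libraries were stranded. The submitters' processing notes name Trimmomatic 0.36, Subread 1.5.1 with featureCounts, bedtools, deepTools, edgeR 3.12.1 and GRCh38. For the peak caller and the handling of UMIs no source used here gives a name or setting. The authors deposited raw read counts for each peak and gene, and for each peak a fold enrichment, an equal score, p-values and q-values, and a log2 difference between genotypes.

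Here peaks were assigned to genes by same-strand overlap with the exon coordinates of the deposited gene counts, merged over transcripts. Counts were fitted with edgeR 4.0.16 in R 4.3.3 (robust quasi-likelihood, biological coefficient of variation 15.2%, low-count filter by group, 12456 peaks dropped, 27252 tested with all 12346 members). The 4 MeRIP groups shared 1 spread, and the 6 RNA-seq libraries were fitted separately. Inputs and IPs of the same number come from the same RNA, and their deviations correlated in each of the 6 pairs (r = 0.11 to 0.47). A paired fit was therefore run as an alternative. The IPs of K513R replicates 2 and 3 correlated similarly with their own input (r = 0.12 and 0.24) and with each other's (0.15 and 0.22). RefSeq matched the start of 850 of the 4897 genes to a member. Scripts were tested on simulated data.

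Named peaks were the members of METTL3, METTL14, WTAP, SETD1A and E2F4 (up to 3 each), the 10 largest rises and falls with groups apart, the 5 of each with most input, the 6 with the highest WT ratio, up to 3 per list for 15 gene lists, and the 5 genes with the largest opposed pair. The values of 1 such peak are not reported here. Sequences at transcript starts were added after seeing the data, by the rule given with them, since no genome sequence was used here. The members and lists were chosen with earlier results of these data known.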

Additional observations from a re-analysis of the deposited data

How the results depend on the processing

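The counts moved with the scaling, the input threshold and the libraries used. Library-size scaling gave 11.5% higher and a median of -0.20. Inputs of at least 50 or 100 counts gave medians of 0.15 and 0.23, and the peaks at or above the median of the authors' score 12.9% higher and a median of -0.27. A threshold of adjusted p under 0.01 left 9.76% higher and 6.40% lower, and a change of at least 1 left 8.21% and 6.67%. Without 1 replicate or 1 library, 7.86% to 28.0% were higher and 5.77% to 19.9% lower, and the median was -0.03 to 0.07. Refits of each list alone, chosen after seeing the data, turned the balance of both. The WT list gave 19.4% higher and 9.91% lower, and the K513R list 11.6% higher and 17.6% lower.

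First exons minus last exons had a median change of 1.00, which was 0.92 to 1.03 in those leave-outs, 0.82 with inputs of at least 100 counts, 0.87 in the refitted WT list and 0.88 in the WT list with library-size scaling. Short internal exons minus last exons had 1.11, which was 0.95 (without the IP library of K513R replicate 1) to 1.25 in those leave-outs and 1.28 at or above the median score. The share of genes with a lower last exon was 75.0% to 78.0% in those leave-outs, 78.0% with peaks at least 500 bases apart, 71.5% at or above the median score and 72.8% in the refitted WT list. A replicate block that paired each input with its IP gave 28.9% higher and 20.6% lower, and changed no call of a named peak other than METTL3 and NR2F2. Numbers did not pair K513R with WT, and a replicate block on them gave 16.1% and 10.8%. For RNA-seq that replicate block gave 25.1% higher and 61.1% lower.

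Of 84 named peaks past the test, 64 kept the call without any 1 replicate or library. The other 20 lost it (highest adjusted p 0.051 to 0.177), among them NPM1, NCL, YLPM1, RPL36AL, VIRMA, FMR1, HNRNPA2B1, BAX, STC2, PPP1R15B and the internal peak of NOL6. The cause was not tested. A peak that did not pass is not shown to be unchanged at this depth.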

Other observations

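Some peaks went against the median of their place, and these were looked up after the values of all peaks had been seen. In last exons 219 peaks rose. Those named here are peaks of 1 gene with groups apart. Chromosome 8 and clone, LINC, antisense, small-RNA and pseudogene names were left out of the look-up, in first exons as well. The largest last-exon rise among them was at NDUFS6, a subunit of respiratory complex I (1.66 ± 0.31, SE). Its log2 IP over input was -1.08, -1.52 and -0.87 in WT and 0.41, 0.37 and 0.79 in K513R. Its input changed by -1.19. CD9, a tetraspanin of the cell surface, had -0.18, -0.21 and -0.06 in WT and 0.49, 1.51 and 2.08 in K513R (1.58 ± 0.34), with an input 0.42 higher. SRP9, a protein of the signal recognition particle that also binds Alu RNA, had -1.17, -1.36 and -1.66 in WT and -0.03, -0.51 and 0.75 in K513R (1.53 ± 0.30), with an input change of -0.05.

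In first exons 55 peaks fell. GALNT18, an enzyme of the family that starts O-linked glycosylation, had -0.09, 0.03 and 0.25 in WT and -1.47, -0.96 and -1.17 in K513R (-1.40 ± 0.35). RNASEH2C, a subunit of the RNase H2 that cleaves RNA in RNA-DNA hybrids, had 0.95, 1.52 and 1.41 in WT and 0.91, -0.58 and -0.34 in K513R (-1.36 ± 0.36), and K513R replicate 1 lay close to the lowest WT value. These genes were picked for their direction, so their values are descriptions.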
